A study of Homo sapiens with 12 samples.

Results

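A set of 9 genes of leukocyte adhesion was followed through retinoic acid treatment of HL-60 cells: the intercellular adhesion molecules ICAM1, ICAM2, ICAM3 and ICAM4, the selectin ligand SELPLG, the adhesion receptors PECAM1 and CD44, and the receptor pair CD47 and SIRPA. They were chosen by symbol, and all 9 of 9 symbols were found among the 26364 genes counted and were among the 12671 genes tested. HL-60 is a human promyelocytic leukemia line that matures towards granulocytes when it is given all-trans retinoic acid (ATRA), the ligand of the retinoic acid receptors. The groups were untreated cells (0 h) and cells that had spent 4 h, 2 d or 4 d in 1 µM ATRA, with 3 libraries at each time and 12 in all. All 4 groups were grown in the same medium with 20% serum. Untreated cells kept for as long as the treated ones were not analysed here, so time in culture and ATRA cannot be told apart. Whether the replicates of a time came from separate cultures is not stated, so p-values measure only the spread between these libraries, which may be technical.

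The ICAMs are cell surface proteins of the immunoglobulin superfamily, and their partners are the leukocyte integrins built on the shared ITGB2 chain. A leukocyte that leaves the blood first rolls on selectins, which hold sugar-decorated mucins such as the product of SELPLG and certain glycoforms of CD44, then arrests through integrins and ICAMs, and crosses the vessel wall with the help of PECAM1. CD47 is carried by nearly all cells, and its contact with SIRPA on myeloid cells sends an inhibitory signal to the phagocyte.

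Gene reads per library ran from 7866757 to 13658177. Levels are given as CPM, the share of a gene in the gene reads of its library, scaled to a common depth with TMM factors. Changes are log2 fold changes ± SE from a fit to all 12 libraries, and a gene was called at an adjusted p under 0.05 by the quasi-likelihood test of edgeR, with p-values adjusted by Benjamini-Hochberg over all 12671 genes. The libraries of 0 h replicate 2, 4 h replicate 3 and 4 d replicate 1 favoured GC-rich transcripts over their group mates, with slopes of 0.49, 0.37 and 0.31 in log2 expression for each 10 points of GC content, and 4 h replicate 1 stood apart with 22265 genes detected, against 15198 to 15798 in the others. The 7 markers of granulocytic maturation summed to 5639 to 7597 CPM in 4 d libraries, against 1093 to 1746 CPM in 0 h libraries, and the 5 promyelocyte markers to 8150 to 9506 CPM at 4 d, against 30520 to 43750 CPM at 0 h. Of 6 endothelial and stromal markers, 5 (VWF, CDH5, KDR, TEK and COL1A2) had 0 reads in all libraries of 0 h, and the 6 together summed to 5.65 to 12.6 CPM at 4 d, against 0.368 to 1.82 CPM at 0 h; COL1A1 made up nearly all of it, and none of the other 5 had a mean over 0.033 CPM at 4 d. The 4 lymphoid markers summed to 6.15 to 8.80 CPM at 4 d, against 1.56 to 2.11 CPM at 0 h, with CD3E at 6.18 CPM at 4 d and 0.563 CPM at 0 h.

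Of the 9 adhesion genes, ICAM1, ICAM4 and SIRPA rose, ICAM2 fell, and CD44 fell by 2 d and was back near its 0 h level at 4 d. ICAM3, SELPLG, PECAM1 and CD47 were called in no comparison between times. At 4 h, 2 of the 9 were called against 0 h, with 6.23% of all genes tested called. Leaving out 1 library moved the 790 genes behind this share to as few as 254 when 4 h replicate 2 was dropped, up to 1519 when 4 h replicate 3 was, and the 2 genes to 1 without 0 h replicate 1, 4 h replicate 1 or 4 h replicate 2. The gene called higher, ICAM1, stood against 2.00% of all genes, and the gene called lower, CD44, against 4.23%. At 2 d, 5 of the 9 were called against 0 h, with 35.6% of all genes called, and at 4 d 4 of the 9, with 57.8% of all genes called. At 2 d the count split into 3 higher and 2 lower, where 16.9% of all genes were higher and 18.7% lower, and at 4 d into 3 higher and 1 lower, where 28.1% were higher and 29.7% lower. In the steps between treated times, 5 of the 9 were called from 4 h to 2 d, where 34.5% of all genes were called, and 4 of the 9 from 2 d to 4 d, where 26.6% were called. The first of these steps had 3 higher and 2 lower, with 16.5% and 18.0% of all genes, and in the second all 4 were higher, with 13.1% of all genes higher and 13.5% lower. An F-test over the 4 times called 5 of the 9 genes (ICAM1, ICAM2, ICAM4, CD44 and SIRPA) and 63.2% of all genes. The genes whose libraries did not overlap between a time and 0 h numbered 3 at 4 h, where 25.5% of all genes had no overlap, 6 at 2 d, where 51.0% had none, and 5 at 4 d, where 59.0% had none. In the steps from 4 h to 2 d and from 2 d to 4 d it was 5 genes each, where 53.1% and 48.0% of all genes had no overlap.

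**Figure D1:**
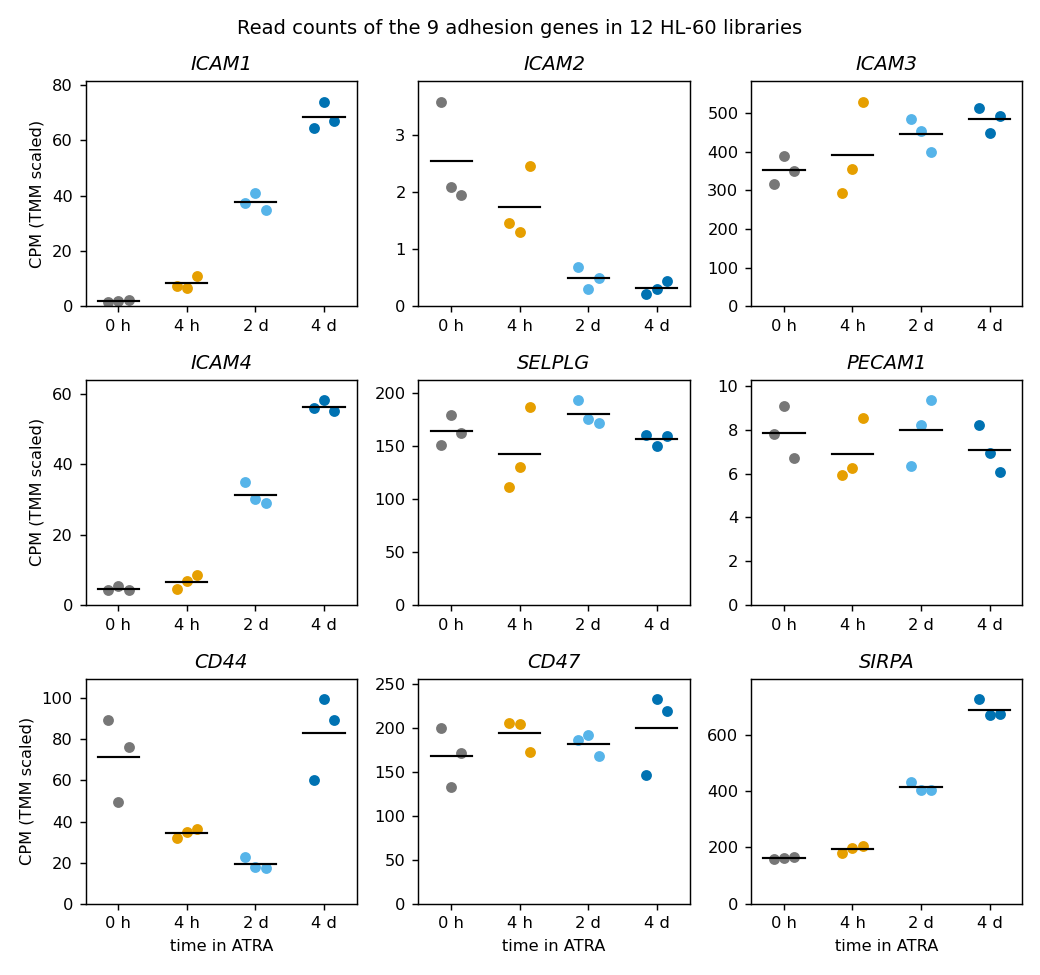
CPM of each of the 9 adhesion genes in every library (points, 3 per time, with a line at their mean) before and during ATRA treatment, each gene on its own axis from 0. ICAM1, ICAM4 and SIRPA climb through the times, ICAM2 declines, CD44 dips at 4 h and 2 d, and ICAM3, SELPLG, PECAM1 and CD47 were called in no comparison.

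ICAM1 codes for the ICAM that inflammatory signals induce on many cells, and it binds the integrins made of ITGAL or ITGAM with ITGB2. It was the adhesion gene with the largest change. At 0 h its 3 libraries held 17, 22 and 23 reads, which is 1.56, 2.00 and 2.24 CPM. After 4 h in ATRA it stood at 7.42, 6.53 and 10.8 CPM, after 2 d at 37.3, 40.9 and 34.8 CPM, and after 4 d at 64.3, 74.0 and 67.0 CPM. Each time lay wholly above the one before it, so the 4 times did not overlap. The fitted log2 fold change against 0 h was 2.08 ± 0.22 at 4 h, 4.28 ± 0.22 at 2 d and 5.14 ± 0.22 at 4 d (edgeR quasi-likelihood test, Benjamini-Hochberg adjusted p = 1.33e-04, 1.78e-08 and 1.71e-09 in this order). Between 4 h and 2 d the log2 level gained 2.20 ± 0.19 (edgeR adjusted p = 2.41e-06), and between 2 d and 4 d it gained 0.86 ± 0.17 (edgeR adjusted p = 0.00309). By log2 fold change ICAM1 ranked 111 of the 12671 genes tested at 4 d against 0 h. In bulk RNA, a change in the number of cells that express a gene and a change in its RNA per cell cannot be told apart.

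ICAM4 codes for the ICAM that carries the Landsteiner-Wiener blood group antigen on red cells, and it binds leukocyte integrins. Its 0 h libraries held 4.14, 5.28 and 4.29 CPM, and those of 4 h 4.49, 6.75 and 8.65 CPM. After 2 d the gene stood at 35.0, 30.2 and 28.9 CPM, and after 4 d at 56, 58.2 and 55.1 CPM. The 0 h and 4 h libraries overlapped, while 2 d lay above both and 4 d above 2 d. Against 0 h the log2 fold change was 0.54 ± 0.22 at 4 h (edgeR adjusted p = 0.151), 2.78 ± 0.21 at 2 d (adjusted p = 7.22e-07) and 3.62 ± 0.22 at 4 d (adjusted p = 2.46e-08). With an offset for GC content and length, the 4 h value was 0.81 (edgeR adjusted p = 0.014) and passed the threshold. The erythroid markers HBB and HBA1 had 0 reads in the libraries of 0 h, 2 d and 4 d. RefSeq lists an antisense gene, ICAM4-AS1, at this locus that is no row of the count tables, and the strand setting of the counting is not given in the sources used here, so its reads cannot be told apart from those of ICAM4.

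ICAM1 and ICAM4 are neighbours on chromosome 19, and the bases just before the annotated start of each are shown because both genes rose with time. They are the 250 bases upstream of the RefSeq start in GRCh38.p14, both on the plus strand, chr19:10270870-10271119 for ICAM1 and chr19:10286705-10286954 for ICAM4. Capitals mark, in ICAM1, a match to the STAT motif TTCNNNGAA (named GAS) and a TATA box, TATAAA, and in ICAM4 a pair of matches to the hexamer bound by retinoic acid receptors, AGGTCA, both on the minus strand, and a match to the NF-kB motif.
ICAM1: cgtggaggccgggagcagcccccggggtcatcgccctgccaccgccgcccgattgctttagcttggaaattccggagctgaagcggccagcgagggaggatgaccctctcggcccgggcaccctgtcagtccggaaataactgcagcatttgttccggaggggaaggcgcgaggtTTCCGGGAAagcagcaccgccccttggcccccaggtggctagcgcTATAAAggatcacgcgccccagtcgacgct
ICAM4: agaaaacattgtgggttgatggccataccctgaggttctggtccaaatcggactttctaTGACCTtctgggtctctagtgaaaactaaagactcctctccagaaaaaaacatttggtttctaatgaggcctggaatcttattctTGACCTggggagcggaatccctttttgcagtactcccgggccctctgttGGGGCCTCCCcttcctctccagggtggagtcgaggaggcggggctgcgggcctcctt
Motifs were searched as exact letters on both strands from 250 bases before to 50 bases after the start. In ICAM1 the GAS match spans positions -75 to -67 from the start, where it reads the same motif on both strands, and the TATA box positions -30 to -25. In ICAM4 the hexamers lie at -191 to -186 and -106 to -101 and the NF-kB match at -57 to -48. Among all 35116 promoters of the RefSeq table the GAS motif was present in 7.66%, the TATA box in 11.5%, the hexamer in 13.8% and the NF-kB motif in 11.3%. The direct repeats of the retinoic acid receptors, DR5 and DR2, matched in neither promoter, and in 0.0883% and 0.0399% of all. The hexamer was searched as AGGTCA alone, while DR5 and DR2 allowed RGKTCA in each part (R is A or G, K is G or T). GGGTCA, a form of RGKTCA, stands unmarked in the ICAM1 bases above, as does TGACCC, the same letters on the minus strand. After 5 more bases GGGTCA is followed by CTGCCA, which differs from RGKTCA, so this looser repeat was not counted as DR5. The NF-kB motif was searched as GGGRNNYYCC (N is any base, Y is C or T). TGGAAATTCC in the ICAM1 bases differs from it in the first letter only and was not counted. A match is a description of letters, and the absence of one says only that those exact letters are not in this window. The table held promoters for 5 of the 9 genes, and none of these 5 held a DR5, DR2 or AP-1 motif (TGANTCA).

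The ratio of ICAM1 to ICAM4, each in CPM per kb of merged exons, was 0.425 to 0.725 in 4 h libraries and 0.166 to 0.229 in 0 h libraries. These groups did not overlap, with an exact two-sided permutation p of 0.1, the smallest that 3 against 3 libraries can give (0.143 after Benjamini-Hochberg adjustment over 10 ratio tests). At 2 d the ratio was 0.53 ± 0.063 and at 4 d 0.532 ± 0.027 (SD, n = 3 each), both within the range of the 4 h libraries. Between 2 d and 4 d the log2 gain was 0.86 ± 0.17 for ICAM1 and 0.85 ± 0.19 for ICAM4. The ratio was chosen after the values were seen.

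ICAM2 codes for an ICAM found on resting endothelium, platelets and leukocytes. It was a low gene here, with 39, 23 and 20 reads at 0 h (3.59, 2.09 and 1.95 CPM) and 16, 18 and 29 reads at 4 h (1.47, 1.31 and 2.46 CPM). At 2 d its libraries held 8, 4 and 4 reads (0.685, 0.303 and 0.493 CPM) and at 4 d 2, 3 and 5 reads (0.208, 0.297 and 0.436 CPM). The later times lay below 0 h and 4 h without overlap, and overlapped each other. The log2 fold change against 0 h was -2.36 ± 0.44 at 2 d (edgeR adjusted p = 0.00113) and -2.95 ± 0.47 at 4 d (edgeR adjusted p = 1.39e-04), while at 4 h it was -0.55 ± 0.37 (edgeR adjusted p = 0.348). The gene passed the filter on low counts through its 0 h and 4 h libraries, since every library of 2 d and 4 d lay below the filter's 0.917 CPM.

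ICAM3 codes for the ICAM that resting leukocytes carry at high density. It held 316, 389 and 350 CPM at 0 h, 293, 354 and 529 CPM at 4 h, 483, 453 and 399 CPM at 2 d, and 512, 448 and 492 CPM at 4 d. The libraries of 2 d and of 4 d lay above those of 0 h, while those of 4 h spanned the whole range, with replicate 3 the highest of all 12. The log2 fold change at 4 d against 0 h was 0.46 ± 0.20, with a 95% interval of 0.02 to 0.90, and was not called (edgeR adjusted p = 0.0662). It passed the threshold under 7 of 23 alternatives. The value was largest with the offset for GC content and length (0.57, edgeR adjusted p = 0.0027). Others of the 7 were without 0 h replicate 2 (0.54, edgeR adjusted p = 0.0372), without 4 h replicate 3 (0.46, edgeR adjusted p = 0.0158) and with DESeq2 (0.48, adjusted p = 0.0398). At 2 d against 0 h the log2 fold change was 0.34 ± 0.20 (edgeR adjusted p = 0.207). This value passed the threshold under 4 of 23 alternatives, among them the offset for GC content and length (0.485, edgeR adjusted p = 0.0126).

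Per kb of merged exons, ICAM3 was the highest of the 9 genes at every time. Lengths are those of all annotated exons of a gene merged, so a gene that uses few of them is understated. Of the summed level of the 4 ICAMs per kb, ICAM3 made up 96.6 ± 0.45% in untreated cells, then 95.5 ± 0.11% after 4 h, 85.5 ± 0.31% after 2 d and 78.1 ± 1.9% after 4 d of ATRA (SD, n = 3 each). Over the same times the share of ICAM4 was 1.96, 2.52, 9.42 and 14.3%, and that of ICAM1 0.365, 1.40, 4.98 and 7.60%. The share of ICAM2 was 1.04, 0.618, 0.138 and 0.074%. The summed level over these times was 163 ± 17, 184 ± 57, 233 ± 22 and 278 ± 12 CPM per kb (SD, n = 3 each).

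**Figure D2:**
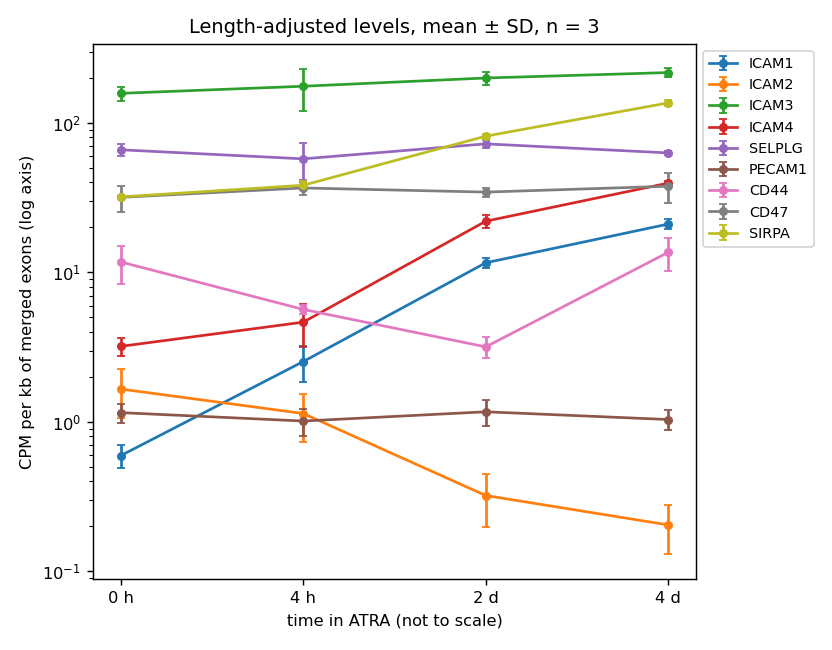
Mean CPM per kb of merged exons (log axis, bars are SD, n = 3) of the 9 adhesion genes at 0 h, 4 h, 2 d and 4 d. ICAM3 runs on top throughout, SIRPA passes SELPLG between 4 h and 2 d, and ICAM1 moves from the lowest place at 0 h to the sixth at 4 d while ICAM2 ends lowest.

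The order of the 9 genes per kb at 0 h was ICAM3 (158 CPM per kb), SELPLG (66.0), SIRPA (32.0), CD47 (31.7), CD44 (11.7), ICAM4 (3.20), ICAM2 (1.66), PECAM1 (1.15) and ICAM1 (0.595). At 4 d it was ICAM3 (217 CPM per kb), SIRPA (136), SELPLG (62.9), ICAM4 (39.5), CD47 (37.7), ICAM1 (21.0), CD44 (13.6), PECAM1 (1.04) and ICAM2 (0.205). SIRPA and CD47 at 0 h, ICAM2 and PECAM1 at 0 h, and ICAM4 and CD47 at 4 d differed by less than 1 SD of the more variable gene of each pair.

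ICAM1, ICAM3 and ICAM4 lie in a cluster on chromosome 19, which does not hold ICAM2. The neighbours of this cluster in the RefSeq gene order were looked at after the values of the ICAMs were known. Of 18 genes listed in the counts from 6 genes before ICAM1 to 6 after ICAM3, 15 were tested. At 4 d against 0 h, 5 of the 15 were called higher and 4 lower, where 28.1% of all genes were higher and 29.7% lower. The 15 include ICAM1, ICAM3 and ICAM4 themselves, and the 5 called higher were S1PR2, ICAM1, ICAM4, ICAM5 and TYK2. These counts are thus not of neighbours alone. ICAM5, the ICAM of neurons, held 24.1, 13.0 and 16.0 CPM at 4 d, against 2.21, 4.37 and 1.17 CPM at 0 h. Its log2 fold change at 4 d was 2.77 ± 0.37 (edgeR adjusted p = 2.80e-05), and at 2 d 0.88 ± 0.38 (edgeR adjusted p = 0.0856). Between ICAM5 and ICAM3, ZGLP1 and RAVER1 were not called at 4 d, with log2 fold changes of 0.46 ± 0.45 and -0.23 ± 0.25. MRPL4, which codes for a mitochondrial ribosomal protein and lies just before ICAM1, fell by 1.86 ± 0.24 on the log2 scale at 4 d (edgeR adjusted p = 2.20e-05). TYK2, a kinase of cytokine receptors just past ICAM3, rose by 1.12 ± 0.28 (edgeR adjusted p = 0.00421).

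**Figure D3:**
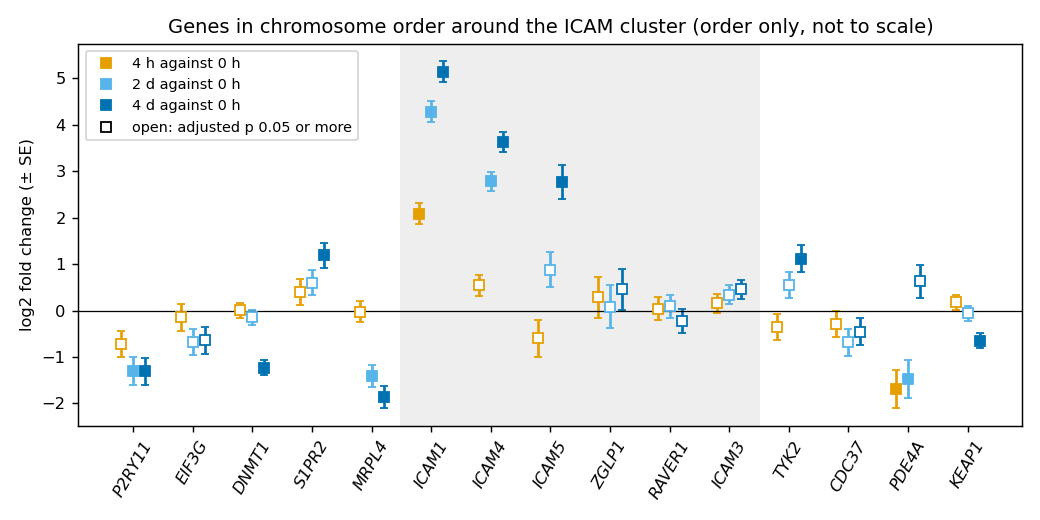
Log2 fold change ± SE against 0 h at 4 h, 2 d and 4 d of the tested genes in chromosome order around the ICAM cluster, with the stretch from ICAM1 to ICAM3 shaded. ICAM1 and ICAM4 rise at 2 d and 4 d and ICAM5 at 4 d, between MRPL4, which falls, and ZGLP1, RAVER1 and ICAM3, which are not called (open squares).

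SELPLG codes for the mucin that selectins bind on leukocytes, and its level differed little between times. It held 151, 180 and 163 CPM at 0 h, 112, 131 and 187 CPM at 4 h, 194, 176 and 172 CPM at 2 d, and 160, 150 and 160 CPM at 4 d. The times overlapped, apart from 4 d, which lay below 2 d. The log2 fold change at 4 d against 0 h was -0.07 ± 0.18, with a 95% interval of -0.46 to 0.32 (edgeR adjusted p = 0.759), and at 2 d 0.13 ± 0.18, with an interval of -0.26 to 0.52 (edgeR adjusted p = 0.595). The sign of the 4 d value turned under 3 of 23 alternatives, in none of which it was called. Between 4 h and 2 d the change of 0.33 ± 0.18 was not called (edgeR adjusted p = 0.173), but it was 0.55 without 4 h replicate 3 (edgeR adjusted p = 0.0132).

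The sugars and tyrosine sulfates that make SELPLG a selectin ligand are added by glycosyltransferases and sulfotransferases, and 20 genes were tested on a list of 24 that also holds genes supplying sugar donors. None was called at 4 h. At 2 d, 5 rose and 4 fell, where 16.9% of all genes rose and 18.7% fell. At 4 d, 7 rose and 4 fell, where 28.1% of all genes rose and 29.7% fell. The median log2 fold change was 0.24 at 4 d, against 0.00 for all genes tested. FUT7, the fucosyltransferase that completes the sialyl Lewis x structure on SELPLG, was the gene of this list that fell most. It held 15.2, 7.73 and 11.6 CPM at 4 d, against 171, 225 and 155 CPM at 0 h, with no overlap. In both groups the highest library was the one that favoured GC-rich transcripts. Its log2 fold change was -2.99 ± 0.30 at 2 d (edgeR adjusted p = 8.67e-06) and -4.00 ± 0.32 at 4 d (edgeR adjusted p = 2.96e-07). TSTA3, which makes the fucose donor GDP-fucose, fell by 1.23 ± 0.29 on the log2 scale at 4 d (edgeR adjusted p = 0.00252). B4GALT1, a galactosyltransferase, rose by 1.47 ± 0.15 at 4 d (edgeR adjusted p = 3.51e-06), and ST3GAL6, a sialyltransferase, by 1.22 ± 0.15 (edgeR adjusted p = 1.35e-05).

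Of the list of 11 selectins and other selectin counter-receptors, 7 were tested, and none was called at 4 h. At 4 d, 3 of the 7 rose and 1 fell, where 28.1% of all genes rose and 29.7% fell. LGALS3BP, a secreted glycoprotein that binds galectins, stood at 14.9 ± 0.54 CPM at 4 d and 0.565 ± 0.21 CPM at 0 h (SD, n = 3 each), a log2 fold change of 4.70 ± 0.28 (edgeR adjusted p = 2.44e-08). Its 0 h libraries held 6, 4 and 8 reads, all below the filter's 0.917 CPM. The gene thus passed the filter on low counts only through the treated libraries, where it was higher.

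Integrin genes, most of them partners of the ICAMs, were counted with TLN1 (talin) and FERMT3 (kindlin-3), which bind integrin tails inside the cell, on a list of 11, of which 9 were tested. At 4 h, 2 of the 9 fell, where 4.23% of all genes fell. ITGAM, which fell then (-0.53 ± 0.14, edgeR adjusted p = 0.0419), lost its call under 13 of 23 alternatives. At both 2 d and 4 d 5 of the 9 rose (ITGAM, ITGAX, ITGB2, ITGAV and TLN1) and none fell, where 16.9% of all genes rose at 2 d and 28.1% at 4 d. Of these, ITGAX had overlapping libraries at 2 d (0.93 ± 0.33, edgeR adjusted p = 0.0437) and lost its call under 12 of 23 alternatives. The median log2 fold change of the list was 1.32 at 4 d, which is the value of TLN1, against 0.00 for all genes tested. ITGAM, the alpha chain of Mac-1, held 390, 394 and 400 CPM at 4 d, against 48.5, 59.95 and 52.8 CPM at 0 h (log2 fold change 2.88 ± 0.15, edgeR adjusted p = 6.89e-09). ITGB2, the beta chain shared by the leukocyte integrins, stood at 3237 ± 130 CPM at 4 d and 639 ± 76 CPM at 0 h (SD, n = 3 each), a log2 fold change of 2.34 ± 0.20 (edgeR adjusted p = 5.77e-07). ITGAL, the alpha chain of LFA-1 and the main partner of ICAM1, ICAM2 and ICAM3, was not called at 4 d, with 278 ± 49 CPM at 4 d and 285 ± 64 CPM at 0 h and a log2 fold change of -0.04 ± 0.19 (edgeR adjusted p = 0.869).

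Of 8 tested linkers between these receptors and the cytoskeleton, on a list of 11, none was called at 4 h, 1 fell at 2 d and 2 fell at 4 d, where 18.7% of all genes fell at 2 d and 29.7% at 4 d. EZR, which codes for ezrin, fell by 1.68 ± 0.14 on the log2 scale at 4 d (edgeR adjusted p = 5.99e-07), to 36.5 ± 1.5 CPM at 4 d, against 117 ± 14 CPM at 0 h (SD, n = 3 each). FLNA, which codes for filamin A, fell by 1.01 ± 0.19 at 4 d (edgeR adjusted p = 5.27e-04).

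CD44 codes for the main hyaluronan receptor of leukocytes. It held 89.4, 49.4 and 76.1 CPM at 0 h, 32.1, 35.0 and 36.4 CPM at 4 h, 22.9, 17.9 and 17.2 CPM at 2 d, and 60.1, 99.6 and 89.6 CPM at 4 d. The 4 h libraries lay below those of 0 h, the 2 d libraries below those of 4 h, and the 4 d libraries overlapped those of 0 h. Against 0 h the log2 fold change was -1.88 ± 0.24 at 2 d (edgeR adjusted p = 5.58e-05) and 0.21 ± 0.23 at 4 d (95% interval -0.28 to 0.71, edgeR adjusted p = 0.435). From 2 d to 4 d CD44 gained 2.1 ± 0.24 on the log2 scale (edgeR adjusted p = 6.11e-05), rank 191 of all genes by log2 fold change in that step. The fall at 4 h was -1.05 ± 0.23 (edgeR adjusted p = 0.0169), and its call was lost without 0 h replicate 1 (-0.86, edgeR adjusted p = 0.058), without 4 h replicate 1 (-1.02, adjusted p = 0.0675) and without 4 h replicate 2 (-1.07, adjusted p = 0.0762). The step from 4 h to 2 d, -0.83 ± 0.23 (edgeR adjusted p = 0.0144), was lost without 2 d replicate 2 (adjusted p = 0.0555) and without 2 d replicate 3 (adjusted p = 0.0622). Counts are per gene, so the standard form and the variant-exon forms of CD44 were not separated.

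Within its groups CD44 was low in 0 h replicate 2 and in 4 d replicate 1, which favoured GC-rich transcripts, by 0.74 and 0.65 on the log2 scale against their group mates, while 4 h replicate 3 was higher than its mates by 0.12. With the offset for GC content and length, the log2 fold change of CD44 was -2.06 at 2 d (edgeR adjusted p = 1.3e-06) and 0.10 at 4 d (edgeR adjusted p = 0.606) against 0 h.

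Genes for hyaluronan and for the shedding, splicing and other ligands of CD44 made up a list of 22, of which 14 were tested. At 4 h 1 rose and 3 fell, where 2.00% of all genes rose and 4.23% fell. At 2 d and at 4 d 6 rose and 3 fell. Of all genes, 16.9% rose and 18.7% fell at 2 d, and 28.1% rose and 29.7% fell at 4 d. The 3 that fell at 4 d were HYAL3, HMMR and SRGN, a proteoglycan core protein that binds CD44. MMP9, a protease that CD44 holds at the cell surface, stood at 0.263 ± 0.22 CPM at 2 d and 2.58 ± 0.53 CPM at 0 h (SD, n = 3 each), a log2 fold change of -3.20 ± 0.43 (edgeR adjusted p = 9.80e-05). MMP9 held only 6, 2 and 1 reads at 2 d, against 24, 35 and 24 at 0 h, so the size of this fall is imprecise. At 4 d MMP9 held 2.31 ± 0.21 CPM (SD, n = 3), with a log2 fold change of -0.16 ± 0.33 (edgeR adjusted p = 0.695). TMEM2, a cell surface hyaluronidase in mouse, rose by 2.96 ± 0.38 at 4 d (edgeR adjusted p = 2.02e-05). MMP14, a membrane protease that can shed CD44, rose by 1.79 ± 0.20 (edgeR adjusted p = 7.38e-06).

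SIRPA codes for the inhibitory receptor of myeloid cells that binds CD47 and recruits the phosphatases PTPN6 and PTPN11. It held 158, 163 and 165 CPM at 0 h, 179, 199 and 204 CPM at 4 h, 432, 403 and 403 CPM at 2 d, and 727, 669 and 672 CPM at 4 d. All 4 times were ordered without overlap. The log2 fold change against 0 h was 0.26 ± 0.13 at 4 h (edgeR adjusted p = 0.235), 1.35 ± 0.14 at 2 d (edgeR adjusted p = 8.73e-06) and 2.09 ± 0.14 at 4 d (edgeR adjusted p = 6.33e-08). With the offset for GC content and length the 4 h value was 0.32 and passed the threshold (edgeR adjusted p = 0.0322). SIRPA has close relatives, SIRPB1 and SIRPG, and how reads shared among them were assigned is uncertain.

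Monocyte markers were read beside SIRPA. CSF1R stood at 63.9 CPM at 4 d and 1.93 CPM at 0 h, and CD14 at 15.03 CPM at 4 d and 22.5 CPM at 0 h, while VCAN and CD163 had 0 reads at 4 d. Their part in the rise of SIRPA was not tested.

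CD47 held 200, 133 and 171 CPM at 0 h, 206, 204 and 172 CPM at 4 h, 186, 191 and 168 CPM at 2 d, and 146, 233 and 218 CPM at 4 d. All times overlapped. The log2 fold change at 4 d against 0 h was 0.25 ± 0.20, with a 95% interval of -0.18 to 0.68 (edgeR adjusted p = 0.304), and it was -0.03 with the offset for GC content and length. CD47 was the adhesion gene with the lowest GC content, 38.4%, and it was low by 0.48, 0.25 and 0.62 on the log2 scale in the 3 libraries that favoured GC-rich transcripts.

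The ratio of receptor to ligand was also compared, chosen after the values were seen. The ratio of SIRPA to CD47, in CPM per kb, was 5.18, 3.0 and 3.21 in 4 d libraries, against 0.825, 1.28 and 1.00 in 0 h libraries. At 2 d it was 2.42, 2.20 and 2.50. Both times lay above 0 h without overlap, each with an exact two-sided permutation p of 0.1, the smallest that 3 against 3 libraries can give (0.143 after Benjamini-Hochberg adjustment over 10 ratio tests). The highest ratio came from 4 d replicate 1, which had the lowest CD47 of the 4 d libraries. Within 0 h, 4 h and 4 d, the highest ratio (1.28, 1.23 and 5.18) came from the library that favoured GC-rich transcripts. The part of GC content in the ratio was not tested.

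**Figure D4:**
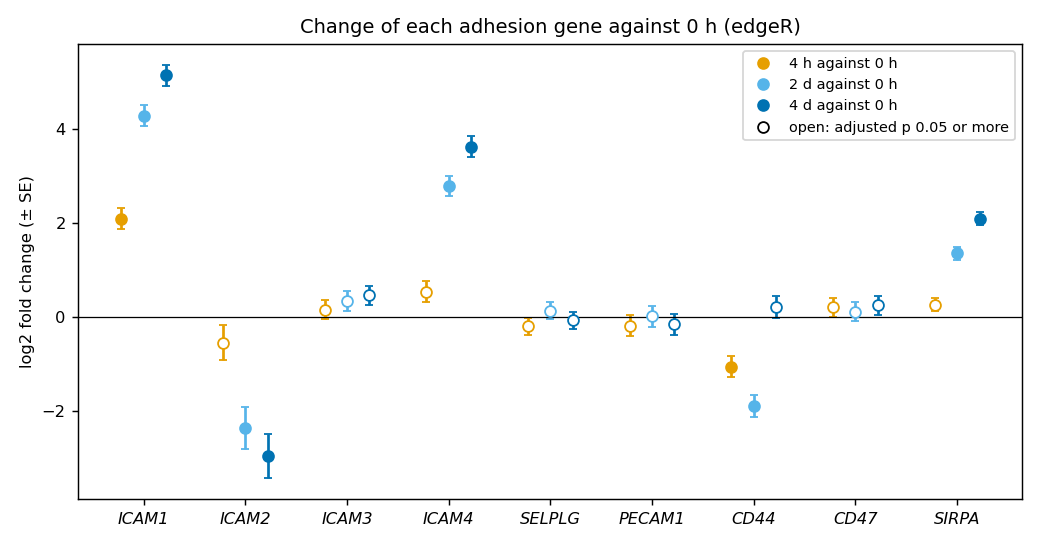
Log2 fold change ± SE against 0 h of the 9 adhesion genes at 4 h, 2 d and 4 d, filled where the edgeR adjusted p was under 0.05. ICAM1 reaches 5.14 at 4 d, ICAM4 3.62 and SIRPA 2.09, ICAM2 lies at -2.95, and the 4 d point of CD44 lies at 0.21 after -1.88 at 2 d.

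Other genes of the CD47 and SIRPA system were counted from a list of 17, of which 15 were tested. At 4 h 1 rose and none fell, where 2.00% of all genes rose and 4.23% fell. At 2 d 6 rose and 2 fell, where 16.9% of all genes rose and 18.7% fell. At 4 d 8 rose and 2 fell, where 28.1% of all genes rose and 29.7% fell. THBS1 codes for thrombospondin, a secreted ligand of CD47. It held 1109, 1655 and 1535 CPM at 4 d, against 2.85, 2.18 and 2.92 CPM at 0 h. Its log2 fold change was 2.02 ± 0.27 at 4 h (edgeR adjusted p = 6.93e-04), 6.38 ± 0.29 at 2 d (edgeR adjusted p = 8.38e-09) and 9.07 ± 0.32 at 4 d (edgeR adjusted p = 5.08e-10). SIRPB1, an activating relative of SIRPA, rose by 1.95 ± 0.18 at 4 d (edgeR adjusted p = 1.03e-06), and FYB, an adaptor protein, by 1.95 ± 0.17 (edgeR adjusted p = 6.31e-07). PTPN6, the phosphatase that SIRPA and PECAM1 recruit, stood at 1275 ± 265 CPM at 4 d and 726 ± 155 CPM at 0 h (SD, n = 3 each), a log2 fold change of 0.81 ± 0.22 (edgeR adjusted p = 0.00594).

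PECAM1 codes for an adhesion receptor that binds itself on the neighbouring cell and carries inhibitory motifs inside the cell. It was low at all times, with 65 to 109 reads per library. Its mean level was 7.88 ± 1.2 CPM at 0 h, 6.92 ± 1.4 CPM at 4 h, 7.98 ± 1.5 CPM at 2 d and 7.08 ± 1.1 CPM at 4 d (SD, n = 3 each), and all times overlapped. The log2 fold change at 4 d against 0 h was -0.16 ± 0.22, with a 95% interval of -0.64 to 0.32 (edgeR adjusted p = 0.569).

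Of 11 partners and ligands of PECAM1 10 were tested. At 4 h 2 rose and none fell, where 2.00% of all genes rose and 4.23% fell. At 2 d 3 rose and 1 fell, where 16.9% of all genes rose and 18.7% fell. At 4 d 7 rose and 1 fell, where 28.1% of all genes rose and 29.7% fell. One of the genes that rose at 4 h, LYN (0.72 ± 0.20, edgeR adjusted p = 0.0469), lost its call under 13 of 23 alternatives. CD38, a cell surface enzyme that uses NAD and binds PECAM1, rose by 5.49 ± 0.34 at 4 h (edgeR adjusted p = 2.20e-06) and by 5.82 ± 0.34 at 4 d (edgeR adjusted p = 1.97e-08). LYN, a kinase that phosphorylates inhibitory motifs, rose by 2.19 ± 0.20 at 4 d (edgeR adjusted p = 1.13e-06). PLCG1, a phospholipase, fell by 2.77 ± 0.40 on the log2 scale at 4 d (edgeR adjusted p = 5.78e-05). It held only 13, 2 and 7 reads at 4 d, against 54, 49 and 54 at 0 h, so the size of this fall is imprecise.

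**Figure D5:**
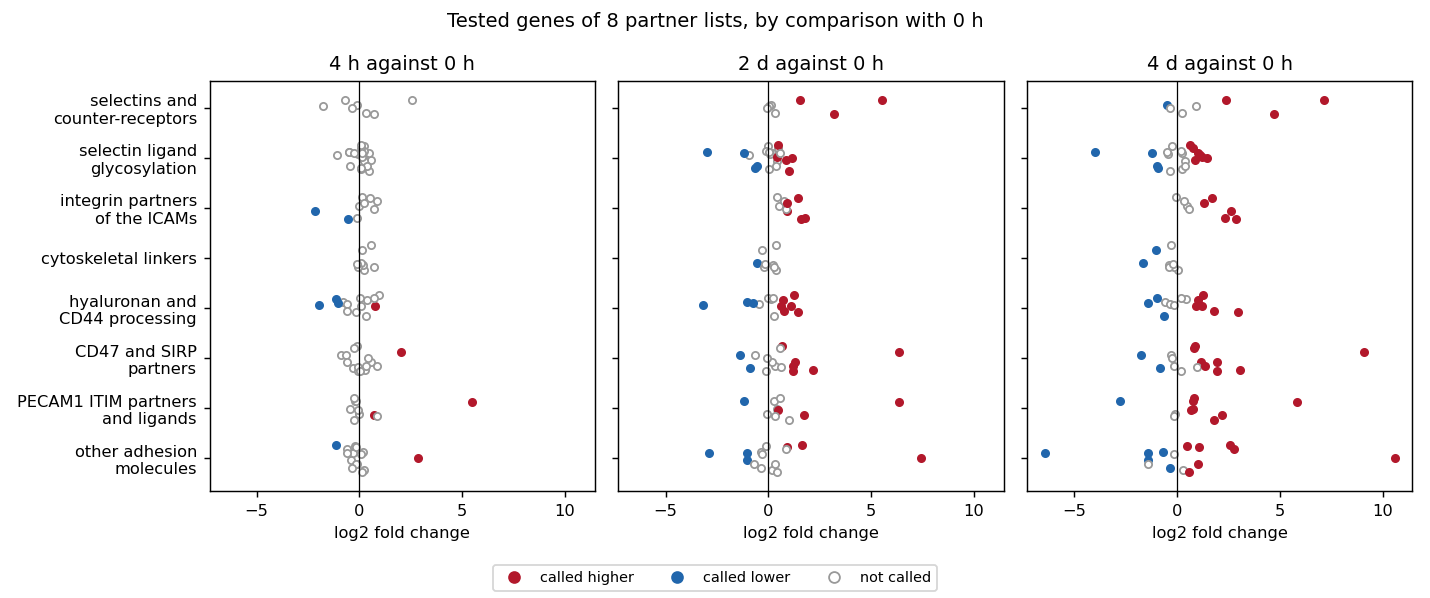
Log2 fold change of each tested gene on the 8 lists of partners (rows) at 4 h, 2 d and 4 d against 0 h, red where called higher, blue where called lower and open where not called. Few genes are called at 4 h; at 4 d the integrin list, which includes TLN1, has 5 called higher and none lower, and the linker list 2 called lower and none higher.

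Among 15 tested genes on a list of 25 other adhesion molecules, 1 rose and 1 fell at 4 h, where 2.00% of all genes rose and 4.23% fell. At 2 d 3 rose and 3 fell, where 16.9% of all genes rose and 18.7% fell. At 4 d 7 rose and 5 fell, where 28.1% of all genes rose and 29.7% fell. The gene that rose at 4 h, CADM1, lost that call under 7 of 22 alternatives, and the gene that fell, PVRL2, under 3 of 23. CADM1, an adhesion molecule of the immunoglobulin superfamily, held 1530, 2373 and 2679 reads at 4 d, against 0, 3 and 1 reads at 0 h, with a fitted log2 fold change of 10.59 ± 0.48 (edgeR adjusted p = 2.24e-09). All of its 0 h libraries lay below the filter's 0.917 CPM, so CADM1 passed the filter on low counts only through the treated libraries. PVRL2, which codes for nectin-2, rose by 2.57 ± 0.23 at 4 d (edgeR adjusted p = 8.15e-07). JAM3, a junctional adhesion molecule that binds Mac-1, fell by 1.42 ± 0.29 on the log2 scale (edgeR adjusted p = 9.54e-04).

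Across the 12 libraries, log2 CPM of ICAM4 and SIRPA had a Pearson correlation of 0.989, ICAM1 and ICAM4 of 0.961, and ICAM1 and SIRPA of 0.952, while ICAM2 ran opposite to them with -0.925, -0.923 and -0.93 against ICAM1, ICAM4 and SIRPA. The points share their libraries and 4 times, so any pair of genes that moves steadily with time has a high value, and these values are descriptions. Among 8666 other genes with at least 10 CPM on average, the genes most like SIRPA were CSF1R (0.993), CHST15 (0.993) and CSGALNACT1 (0.993), and those most like ICAM1 were BATF2 (0.995), RCSD1 (0.992) and TTLL4 (0.991). For ICAM4 they were CTSD (0.994), HPD (0.994) and SH3RF3 (0.993), and for ICAM2, among 8667 genes, COMMD1 (0.975), AHSA1 (0.966) and MRPS17 (0.961). The dip and return of CD44 had fewer close matches: its nearest genes were METTL9 (0.926), CA2 (0.924) and LGALS3 (0.888).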

How the data were processed

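RNA-seq was deposited for HL-60 cells at 4 times in ATRA, 3 libraries per time. The deposited values are counts of reads per gene and library. Per the submitters' processing notes, FastQC, Trim Galore 0.6.7, HISAT2 2.1.0, HTSeq 1.99.2 and the hg19 build were used; not given in the sources used here are the annotation, the kit and the strand setting. The deposited tables also hold 5 classes of unassigned reads, left out of library sizes; no-feature reads came to 14.0% to 28.1% of a library.

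Counts were fitted in R 4.3.3 with edgeR 4.0.16 after filterByExpr (at least 10 reads at the median depth in 3 libraries) and TMM scaling, with 1 mean per time over 12 libraries and 8 residual degrees of freedom; the fit was tested on simulated data. Comparisons were each time against 0 h and each step between treated times, and p-values were adjusted by Benjamini-Hochberg over all genes tested, with calls under 0.05. SEs derive from the fold change and its F statistic. Lengths and GC content are from GENCODE 29 transcripts on GRCh38 matched by symbol (94.5% of tested genes), and promoters from RefSeq. Interval and SE cover the spread between these libraries.

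The 9 genes were given by name. They, the 8 lists (130 symbols, of which 1 was no row of the files, NECTIN2, whose gene is listed as PVRL2) and the alternatives were chosen with earlier results of these data known. Named list genes were up to 4 per list, called against 0 h at some time with no overlap of libraries, at a mean of 1 CPM or more, in order of log2 fold change, plus ITGAL, ITGAM, ITGB2, FUT7, THBS1 and PTPN6; some genes of the lists are not reported here. Genes most alike were the 3 with the highest correlation. Alternatives were RLE factors, library totals, other count filters, DESeq2 1.42.0, limma-voom (limma 3.58.1), fits to 6 libraries, replicate number as a term, an offset for GC content and length, and fits without single libraries or sets of 3 of them. Replicates differed by more than counting noise, with a chi-square per degree of freedom of 3.47 to 98.0.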

Additional observations from a re-analysis of the deposited data

How the results depend on the processing

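Over 23 alternatives, 1007 of 1034 fold changes of the 9 genes kept their side of the threshold, 6 lost their call, 21 gained one and 0 of the called ones reversed; 20 that were not called changed sign. For the genes named from the lists, the same counts were 1890 of 1998, with 78 lost, 30 gained and 0 reversed. The rises of ICAM1, ICAM4 and SIRPA and the fall of ICAM2 at 2 d and 4 d against 0 h, and the fall of CD44 at 2 d, kept their calls under every alternative. RLE factors, library totals and the GC offset moved the median of all genes by at most 0.0688 on the log2 scale.

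At 4 h against 0 h, 2 of the 9 genes and 790 of all genes were called. With a replicate block 1 of the 9 and 381 genes were called, and with the GC and length offset 4 of the 9 (ICAM1, ICAM4 and SIRPA higher, CD44 lower) and 1364 genes. Without a filter 1960 genes were called, with DESeq2 1339, in a fit to 6 libraries 261, and 3192 when replicate 2 of 0 h, replicate 3 of 4 h and replicate 1 of 4 d were dropped together. That last fit called 6725 genes from 4 h to 2 d, where the count was otherwise 4377, and 5549 from 2 d to 4 d, otherwise 3374. Leaving out 1 library at a time gave 1 to 2 of the 9 genes and 254 (without 4 h replicate 2) to 1519 genes (without 4 h replicate 3) at 4 h, and 2110 (without 2 d replicate 2) to 4215 genes from 2 d to 4 d, with 2245 without 2 d replicate 1. The causes were not tested.

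The replicate numbers showed no steady pairing of the samples: over 18 pairs of groups and numbers the correlation of deviations ran from -0.829 to 0.675, with 6 over 0.1. The libraries that favoured GC-rich transcripts have different replicate numbers and may weigh on these values, which therefore cannot settle whether samples were paired. The block ended the 4 h call of CD44 (-1.04, edgeR adjusted p = 0.0537). With 17 to 23 reads of ICAM1 per library at 0 h and 2 to 8 of ICAM2 at 2 d and 4 d, depth limits the precision of both.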

Other observations

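Some partner genes moved at 4 h against the direction they had later, among them ITGAX, PVRL2 and ITGAM, whose 4 h call is described above. ITGAX, the alpha chain of another leukocyte integrin, stood at 10.96 ± 1.4 CPM at 4 h and 48.7 ± 24 CPM at 0 h (SD, n = 3 each), a log2 fold change of -2.15 ± 0.35 (edgeR quasi-likelihood test, Benjamini-Hochberg adjusted p = 0.00325), and at 4 d it was 2.60 ± 0.35 above 0 h (adjusted p = 2.90e-05 by the same test). PVRL2 fell by 1.116 ± 0.24 on the log2 scale at 4 h (edgeR adjusted p = 0.0156) and rose by 2.57 ± 0.23 at 4 d, although the 4 h call was lost without 4 h replicate 1 (edgeR adjusted p = 0.0767) and without 4 h replicate 2 (edgeR adjusted p = 0.0933). ITGAV, the chain of vitronectin receptors that also binds ICAM4, rose by 1.67 ± 0.40 at 4 d (edgeR adjusted p = 0.00298).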
